A study of Mus musculus with 19 samples.

Results

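The dystrophin-glycoprotein complex was followed through 8 genes, Dmd, Utrn, Dag1, Sgca, Sgcb, Sgcd, Sspn and Dtna, which were taken by name. All 8 were present among the 35598 genes with estimated counts, and all 8 were among the 15123 genes that passed a filter on low counts. Sgcd passed through the myotube libraries, since each of its myoblast libraries held 0 to 5 counts. The samples were primary myoblasts, the precursor cells of muscle fibres, taken from mouse hind limb and labelled WT or Glud1KO. Glud1 encodes the mitochondrial enzyme glutamate dehydrogenase. The WT label covered 3 libraries of proliferating myoblasts after 24 h in growth medium, 3 of differentiated myotubes at 48 h and 4 of fused myotubes at 72 h, and the Glud1KO label covered 3, 2 and 4 libraries. Strain, age and the way in which Glud1 was disrupted are not given in the sources used here. Replicates are numbered as biological, with nothing said of separate animals or cultures, so p-values measure only the spread between these libraries.

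Libraries held 16168131 to 30742634 estimated counts. The counts of Glud1 itself did not separate the labels. They ran from 184 to 192 counts per 1000000 (CPM, scaled by TMM) in WT myoblasts and from 185 to 190 in Glud1KO myoblasts, from 102 to 112 (WT) against 96.6 to 103 at 48 h, and from 131 to 141 (WT) against 130 to 139 at 72 h. The adjusted p-values of edgeR's quasi-likelihood test were 0.849, 0.193 and 0.748. Its deposited TPM, a level per length, was lower under the Glud1KO label at each stage, with means of 139 against 169, 61.7 against 83.8 and 79.4 against 102. The names of the deposited files write KO for libraries of both labels and add a T to those labelled Glud1KO. What the T means is not stated, and the labels were followed. Among 9 muscle stage markers, Myh3, an embryonic myosin, rose by 6.19 (log2) from WT myoblasts to differentiated myotubes and Pax7, a marker of muscle stem cells, fell by 3.26. Of 28 marker genes of fibroblasts, endothelium, Schwann cells, pericytes and smooth muscle, immune cells, adipocytes and neurons, 18 stayed under 1 CPM in every library. The highest were the pericyte markers Rgs5, at up to 40.8 CPM in myoblasts and at most 0.392 CPM in myotubes, and Notch3, at up to 18.2 CPM. The libraries are bulk samples, in which fewer cells of a type and less RNA per cell cannot be told apart.

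The complex links the actin cytoskeleton of a muscle fibre to the laminins of the basement membrane and protects the membrane during contraction. Dystrophin (Dmd) and its relative utrophin (Utrn) bind actin at their start and dystroglycan (Dag1) near their end, and dystroglycan binds laminin through sugar chains added by a dedicated set of enzymes. The sarcoglycans and sarcospan (Sspn) form a subcomplex in the membrane, and dystrobrevin (Dtna) carries syntrophins on the inner side. Dmd has several promoters. The upstream ones drive the full-length muscle and brain forms, and an internal one drives the short form Dp71, which lacks the actin-binding region and is made in many non-muscle tissues.

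The upstream sequences of the start sites are shown because the full-length and the short Dmd transcripts moved differently across the stages. RefSeq (GRCm38.p6, the build of the annotation used) held 10 start sites for 7 of the 8 members. Each sequence below gives the 250 bases before a start site, 5′ to 3′ on the strand of the gene. Capitals mark matches on either strand to an E-box (CANNTG), to the MEF2 motif or to the CArG box, which are the binding motifs of the myogenic bHLH factors, of MEF2 and of serum response factor. The Dmd window at chrX:82948620-82948869 lies just upstream of the annotated start of the full-length transcript Dmd-203, and the window at chrX:85048045-85048294, also on the plus strand, lies upstream of the short transcript Dmd-201. The Dag1 window, at chr9:108263959-108264208 on the minus strand, precedes Dag1-204, the main Dag1 transcript, and is shown as the most abundant member in myotubes.
Dmd full-length: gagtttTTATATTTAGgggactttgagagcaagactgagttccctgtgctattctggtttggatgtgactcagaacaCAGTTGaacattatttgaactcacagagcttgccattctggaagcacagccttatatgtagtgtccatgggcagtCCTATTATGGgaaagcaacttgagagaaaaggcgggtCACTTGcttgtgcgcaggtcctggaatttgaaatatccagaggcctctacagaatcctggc
Dmd short form: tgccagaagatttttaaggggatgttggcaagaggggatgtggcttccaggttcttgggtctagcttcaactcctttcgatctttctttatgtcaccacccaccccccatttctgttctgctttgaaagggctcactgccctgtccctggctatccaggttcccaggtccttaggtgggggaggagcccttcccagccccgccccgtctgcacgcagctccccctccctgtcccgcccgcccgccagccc
Dag1: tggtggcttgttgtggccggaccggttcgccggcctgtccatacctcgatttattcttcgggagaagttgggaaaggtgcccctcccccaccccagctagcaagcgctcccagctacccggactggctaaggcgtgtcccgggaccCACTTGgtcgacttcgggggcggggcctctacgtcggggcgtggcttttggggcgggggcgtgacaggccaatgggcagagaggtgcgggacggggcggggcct
The full-length Dmd window held 2 E-boxes, at 173 and 61 bases before the start, a MEF2 match at 244 and a CArG box at 98. The short-form window held none of these 3 motifs. Its GC content was 60% against 45.2% for the full-length window, and it held 3 matches to GGGCGG, a GC box, where the full-length window held 0. No match of 1 of these motifs overlapped a match of another in the printed windows. The Dag1 window held 1 E-box, at 104 bases before the start, and 3 GC boxes, with a GC content of 67.6%. Among all 32851 RefSeq windows of this length, 66.2% held an E-box, 2.92% the MEF2 motif, 1.47% a CArG box and 32.7% a GC box. Over the 10 windows of the complex, 7 held an E-box, 1 the MEF2 motif, 1 a CArG box and 5 a GC box. Dag1 has another window, which overlaps the printed one and holds the same E-box and the same 3 GC boxes. These Dag1 sites are therefore counted in both windows, and the 10 windows are not separate. A narrower E-box, CAGCTG, was in 0 of the 10 windows, where 13% of all windows held it. The M-CAT motif, CATTCC, was in 3 of the 10, where 12.6% of all windows held it. These matches describe the letters of the windows, and nothing here measured binding.

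From WT myoblasts to differentiated myotubes, counts of 7 members rose (edgeR's quasi-likelihood test, called at an adjusted p under 0.05). Sgcd, which passed the filter through its myotube libraries, is left out of the counts and medians against myoblasts and described by its counts. The median rise of the 7 was 1.69 on the log2 scale, against a median of 0.02 over all genes tested. Across all genes this contrast called 85% either way, 42.4% as higher and 42.6% as lower. The rise was largest in Dmd, at 5.16 ± 0.11 (log2 ± SE), followed by Dag1 at 2.79 ± 0.05, Dtna at 2.58 ± 0.05, Sgca at 1.69 ± 0.04, Utrn at 1.44 ± 0.07, Sspn at 0.75 ± 0.04 and Sgcb at 0.64 ± 0.04. From differentiated to fused WT myotubes 6 members rose further, Utrn fell and Sgca was not called. That contrast called 75.1% of all genes, 37.4% as higher and 37.7% as lower. Between WT myoblasts and fused myotubes the same 7 were higher, with a median of 1.69 against -0.01 over all genes, and 85.5% of genes were called, 42.2% as higher and 43.4% as lower. In the Glud1KO libraries, these 7 were also higher in differentiated than in proliferating cells and in fused myotubes than in myoblasts, and 6 of the 8 changed between the myotube stages, with 83.7%, 87.2% and 70.2% of all genes called in these 3 contrasts. Between these Glud1KO myotube stages Dag1 lost its call without differentiated replicate 1 (0.15, adjusted p 0.0549) and Sgca gained one without replicate 2 (0.14, 0.0123). The shares of genes called are so large that a call at a stage says little of these genes in particular. Scaling by library size alone shifted the median of all genes by -0.25 in WT differentiated and by -0.32 in WT fused myotubes against myoblasts, and the rise of Utrn to the fused stage was then 0.12 (adjusted p 0.093).

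**Figure D1:**
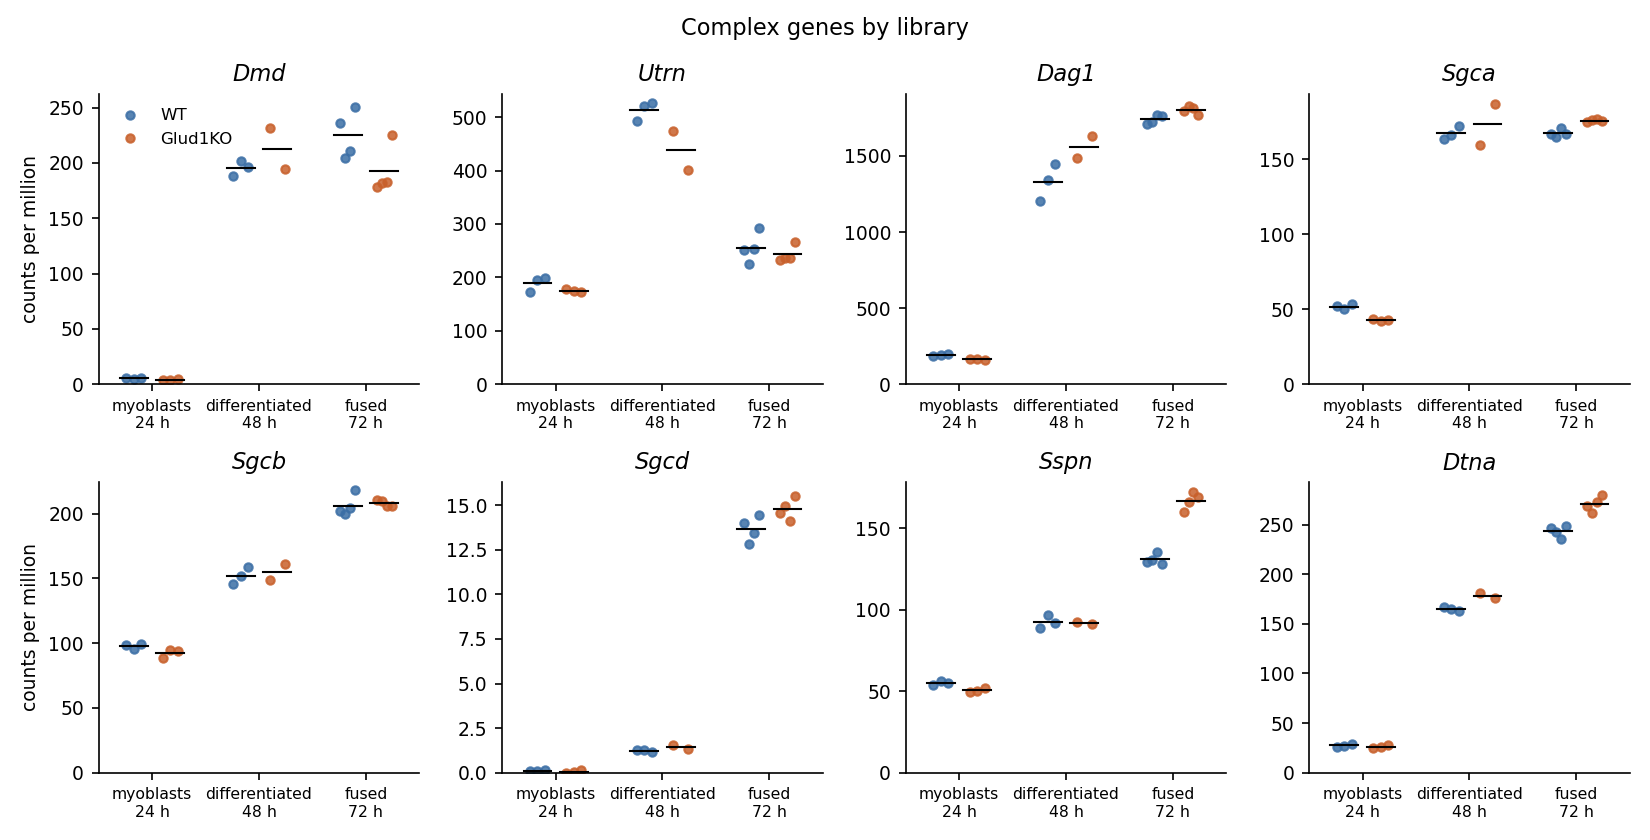
CPM of the 8 genes in each of the 19 libraries, by stage (horizontal axis, with hours in culture) and label (blue WT, orange Glud1KO), with each vertical axis starting at 0; points are libraries and black lines are group means. Utrn peaked at 48 h at 493 to 526 CPM in WT, Sgcd went from 1.16 to 1.28 CPM at 48 h to 12.8 to 14.5 at 72 h in WT, and the Sspn libraries of the 2 labels separated at 72 h.

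Dmd (chrX:82948870-85206141, plus strand), the actin-to-membrane linker, was nearly silent in proliferating cells. The 3 WT myoblast libraries had 5.28, 4.97 and 6.05 CPM and the 3 Glud1KO myoblast libraries 3.67, 3.71 and 4.61. Differentiated myotubes had 188, 201.4 and 196 CPM in WT and 232 and 194 in Glud1KO. Fused myotubes had 236, 204.6, 211 and 250 CPM in WT and 178, 182, 183 and 226 in Glud1KO. The labels did not overlap in myoblasts, whereas they overlapped at both myotube stages. Nearly the whole rise of Dmd took place by 48 h, since the WT change from 48 h to 72 h was 0.21 ± 0.07 (adjusted p 0.0089), and this call was lost with library size scaling (0.14), with DESeq2 (0.18) and with an offset for effective length (0.02). Counts of a gene also follow the length of the transcripts in use, and Dmd shifted from shorter to longer transcripts. With the effective-length offset the WT rise to 48 h was 4.07 in place of 5.16 and the rise to 72 h 4.09 in place of 5.37.

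The shift was visible in the transcripts. GENCODE M21 lists 14 Dmd transcripts, of which only Dmd-203 (14910 nt, 79 exons, chrX:82948903-85206141) is full-length by the limit of 10000 nt used here. A second class, short C-terminal transcripts, starts after exon 62 and is led by Dmd-201 (4438 nt, 18 exons, chrX:85048413-85205039). In WT myoblasts the full-length transcript held 67.9%, 56.7% and 59.6% of Dmd estimated counts, and the short C-terminal class 28.1%, 38.3% and 39.5%. The full-length share was 60.5%, 65.7% and 63.0% in Glud1KO myoblasts. At 48 h it was 95.8% to 96.5% in WT, and 97.4% and 97.6% in Glud1KO. At 72 h it was 96.5% to 98.4% in WT, while Glud1KO libraries held 97.6% to 98.2%. All myotube libraries therefore lay far above all myoblast libraries. As a share of TPM, which corrects for length, full-length Dmd made up 19.9% ± 2.40 (SD, n = 3) of Dmd in WT myoblasts, 67.3% ± 3.76 (n = 3) at 48 h and 78.1% ± 8.25 (n = 4) at 72 h. Both scales rose between myoblasts and myotubes, from different starting levels.

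**Figure D2:**
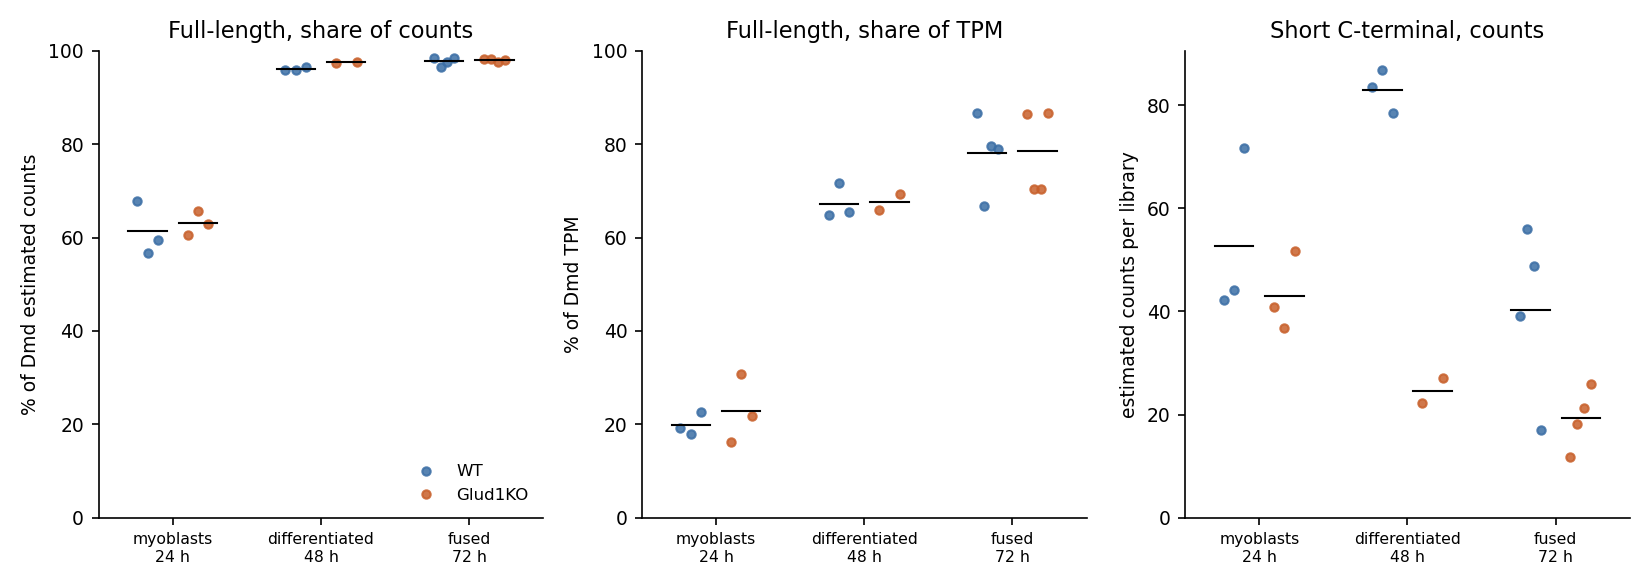
Share of Dmd estimated counts held by the full-length transcript, its share of Dmd TPM, and estimated counts of the short C-terminal class, by stage and label (blue WT, orange Glud1KO); points are libraries and black lines group means. Full-length shares of counts lie at 56.7% to 67.9% in myoblasts and at 95.8% to 98.4% in myotubes.

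The short class was not lower in WT at 48 h than in myoblasts. Its libraries, in counts not scaled for depth, held 42.2, 44.1 and 71.6 estimated counts in WT myoblasts, 83.5, 86.8 and 78.5 at 48 h and 16.9 to 56.0 at 72 h. The rise of full-length Dmd, from 65.2 to 108 counts per library in WT myoblasts to 3800 to 5377 at 48 h, set its share. Glud1KO libraries held 36.7 to 51.6 counts of the short class in myoblasts, 22.3 and 27.0 at 48 h, and 11.7 to 25.9 at 72 h. By these counts the labels did not overlap at 48 h, while at 72 h the lowest WT library fell within the Glud1KO range. By TPM they overlapped at 48 h, at 6.78, 1.52 and 6.57 in WT and 3.80 and 5.25 in Glud1KO, and the Glud1KO values at 48 h were above those of Glud1KO myoblasts, at 0.512 to 1.29. Dmd-201 was listed at 0 in both Glud1KO libraries at 48 h and at 0.61% to 1.84% of Dmd counts in the WT libraries. These counts come from sharing reads among overlapping transcripts and were not tested. The full-length share itself did not pass a test between labels. Its difference, Glud1KO minus WT, was 1.65 points in myoblasts (exact permutation test, two-sided, p = 0.7, smallest possible p 0.1), 1.38 points at 48 h (exact p = 0.2, the smallest possible) and 0.24 points at 72 h (exact p = 0.743, smallest possible 0.0286). Adjusted over the 3 exact tests these were 0.743, 0.6 and 0.743.

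Utrn (chr10:12382188-12869365, minus strand), the utrophin gene, is the broadly expressed relative of dystrophin. Its libraries had 173, 195 and 198 CPM in WT myoblasts, 493, 520 and 526 at 48 h and 252, 226, 252 and 292 at 72 h. The rise to 48 h was therefore followed by a fall by 1.00 ± 0.06 on the log2 scale (adjusted p 7.65e-14). Utrn was the only member that fell between these stages in WT, and it fell by 0.85 ± 0.07 in Glud1KO. Per length, Dmd summed over all its transcripts stood far below Utrn in myoblasts and close to it in fused myotubes. Full-length Dmd alone was at 0.458 TPM in WT myoblasts, 23.6 at 48 h and 25.5 at 72 h. Utrn was at 32.9, 81.8 and 36.4 TPM in these groups. The ratio of Dmd TPM to Utrn TPM was 0.071 ± 0.013 (SD, n = 3) in WT myoblasts, 0.429 ± 0.007 (n = 3) at 48 h and 0.902 ± 0.068 (n = 4) at 72 h. In Glud1KO it was 0.050 ± 0.013 (n = 3), 0.568 ± 0.035 (n = 2) and 0.825 ± 0.071 (n = 4). The ratios did not overlap between labels in myoblasts, at 0.062 to 0.086 in WT and a lower 0.035 to 0.058 in Glud1KO, nor at 48 h, at 0.422 to 0.435 in WT and a higher 0.543 and 0.593 in Glud1KO. At 72 h they overlapped. In 4 of the 6 groups the library with the highest Dmd also had the highest Utrn. Groups of 2 to 4 libraries agree in part by chance, and no chance level was worked out. The main transcripts of both genes are long, 14910 nt in Dmd-203 and 12382 nt in Utrn-201. A part of length in this agreement was not tested.

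**Figure D3:**
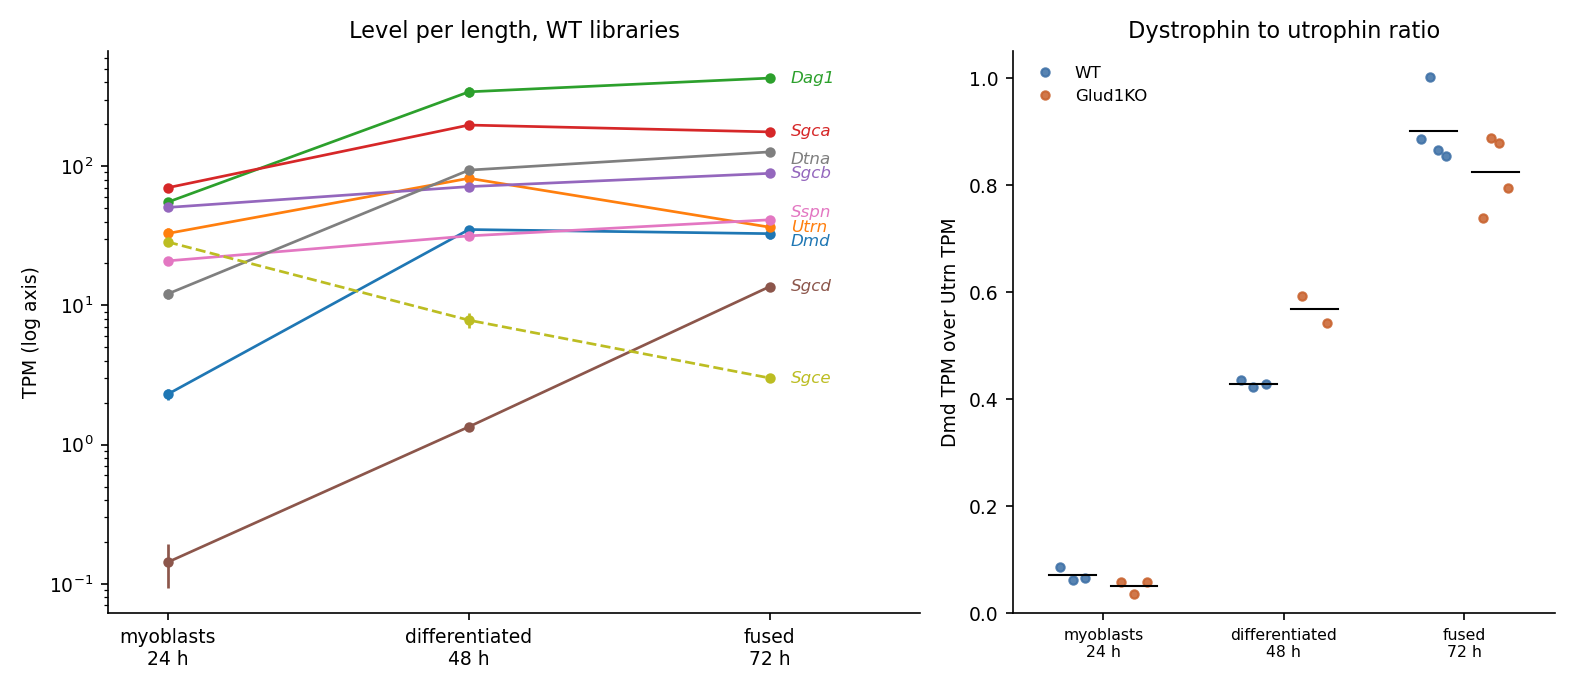
Left, mean TPM of the 8 genes (solid lines) and of Sgce (dashed) in WT libraries by stage, on a log axis, with bars for the SD over libraries; right, Dmd TPM over Utrn TPM in each library by label, with group means as black lines. Dag1 rose to the top of the order at 429 TPM, Sgcd rose from 0.14 to 13.7 TPM, and the ratio of Dmd to Utrn rose from 0.071 to 0.902 in WT. The ratio sums all transcripts of each gene, for Dmd also the short ones.

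Dag1 (chr9:108204634-108263958, minus strand) encodes both subunits of dystroglycan, the laminin receptor at the centre of the complex. It had 188, 191 and 197 CPM in WT myoblasts, 1203, 1343 and 1444 at 48 h and 1710, 1722, 1771 and 1764 at 72 h. Glud1KO libraries had 166, 165 and 162 CPM, then 1489 and 1631, then 1796, 1827, 1817 and 1770. Dag1 rose at each step in WT, by 2.79 and then by 0.39 ± 0.05 (adjusted p 2.09e-08). Per length it was the most abundant member in all myotube groups, at 429 ± 12.8 TPM (SD, n = 4) in WT fused myotubes against 176 ± 6.40 for Sgca, the next member. In WT myoblasts it followed Sgca, at 55.2 ± 1.25 against 70.0 ± 4.75 TPM (n = 3), and stood near Sgcb at 50.5 ± 0.55. In Glud1KO myoblasts Sgcb at 47.2 ± 2.40 and Dag1 at 46.2 ± 0.42 TPM did not differ beyond their spread.

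The genes that add the laminin-binding sugars to dystroglycan moved in both directions. Of 18 genes listed, 17 were tested, and between WT myoblasts and fused myotubes 10 were called higher and 6 lower, with a median of 0.57, where 85.5% of all genes were called. Pomgnt2 rose by 1.78 and B4gat1, which primes the laminin-binding sugar chain, by 1.27. Pomt2, a protein mannosyltransferase, fell by 0.94. The largest rise was that of Dpm1 (2.04) and the largest falls were those of Dpm3 (-1.31) and Dpm2 (-1.02), the 3 subunits of the dolichol-phosphate-mannose synthase. Among 11 extracellular ligands, 9 were tested, 5 were called higher and 3 lower, beside the same 85.5%. The laminin chain Lamb2 rose by 2.43, the laminin chain Lamb1 fell by 4.69 and Bgn, a proteoglycan that binds sarcoglycans, fell by 3.06.

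The sarcoglycans Sgca, Sgcb and Sgcd are subunits of the membrane subcomplex of striated muscle, and Sgce can take the place of Sgca elsewhere. Sgca (chr11:94962791-94976327, minus strand) had 52.4, 49.9 and 53.2 CPM in WT myoblasts, 163, 166 and 172 at 48 h and 167, 165, 171 and 167 at 72 h, so its whole rise lay before 48 h (change afterwards 0.00 ± 0.04, adjusted p 0.988). Sgcb (chr5:73632749-73647790, minus strand) rose more slowly and at both steps, from 95.6 to 99.2 CPM in WT myoblasts to 145 to 159 and then 200 to 218. Sgcd (chr11:46896253-47988969, minus strand) was near 0 in myoblasts. It had 0.105, 0.086 and 0.167 CPM in WT myoblasts, 1.28, 1.26 and 1.16 at 48 h and 14.0, 12.8, 13.4 and 14.5 at 72 h, with a rise of 3.47 ± 0.13 (adjusted p 1.3e-18) between the myotube stages. The 10 counts of the WT myoblast libraries together (exact 95% Poisson interval 4.80 to 18.4, counting error only) put the fused level 111-fold above myoblasts, or 60.6-fold at the upper limit of the interval. In Glud1KO, 5 counts (1.62 to 11.7) gave 284-fold, or 122-fold at the limit. These 5 counts fell as 0, 1 and 4 over the libraries, and the fitted Glud1KO changes of Sgcd against myoblasts, which depend on how a count near 0 is treated, moved by over 1.5 times when Glud1KO myoblast replicate 1 or 3 was left out, from 8.003 to 7.40 or 9.47 at 72 h and from 4.64 to 4.04 or 6.11 at 48 h.

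Sgca and Sgce moved in opposite directions between WT myoblasts and fused myotubes. Sgce fell by 2.94, from 28.5 ± 0.63 to 3.01 ± 0.11 TPM. The ratio of Sgca to Sgce TPM was 2.46 ± 0.21 in WT myoblasts and 58.6 ± 1.44 in fused myotubes. Sgcd remained the least abundant of Sgca, Sgcb and Sgcd, at 0.154 ± 0.005 (n = 4) of the Sgcb TPM in WT fused myotubes and 0.019 ± 0.002 (n = 3) at 48 h.

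Sspn (chr6:145931641-145965223, plus strand), a small membrane protein that binds the sarcoglycans, rose at both steps. WT libraries had 53.7, 56.2 and 55.0 CPM, then 88.7, 96.9 and 91.6, then 129, 131, 135 and 128. Glud1KO libraries had 49.5, 49.9 and 52.2 CPM, then 92.4 and 91.3, then 160, 166, 172 and 169. The 4 Glud1KO libraries at 72 h all lay above the 4 WT libraries. The alternative transcript Sspn-203 held 8.08% to 36.4% of Sspn counts in WT myotubes at 48 h, a spread too wide to describe its share. An antisense gene, Sspnos, overlaps a Sspn exon by 69 nt, and the sources used here do not say if reads were assigned by strand.

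Dtna, alpha-dystrobrevin, had 26.3, 27.2 and 29.1 CPM in WT myoblasts, 167, 165 and 163 at 48 h and 246, 243, 235 and 248 at 72 h. Glud1KO libraries had 24.7, 25.8 and 28.1, then 181 and 176, then 269, 261, 272 and 280. It rose at both steps in WT, by 2.58 and then by 0.56 ± 0.04 (adjusted p 2.82e-13). Dtna changed its transcripts at the same time. The longest of the 4 main ones, Dtna-202 (6295 nt, 21 exons), held 60.0% ± 1.94 (SD, n = 3) of Dtna counts in WT myoblasts and 24.2% ± 1.59 (n = 3) at 48 h. Dtna-206 (4490 nt, 18 exons), which ends earlier in the gene, went from 10.3% ± 0.27 to 41.1% (39.8% to 42.7% over the libraries), and the short Dtna-201 (1596 nt, 12 exons) from 8.87% ± 0.59 to 23.3% ± 0.58. Dtna-203 (3860 nt, 25 exons) went from 18.7% to 8.44%. At 72 h the shares of Dtna-202, Dtna-206 and Dtna-201 were 24.2%, 37.7% and 23.1%. Dtna-206 was then lower than at 48 h with no overlap, at 36.8% to 38.8%, and Dtna-203, at a mean of 12.1%, was higher with no overlap. With the effective-length offset the Glud1KO rise of Dtna was larger, at 3.39 in place of 2.77 at 48 h and at 3.985 in place of 3.37 at 72 h. The WT rise also reached up to 3.10 at 48 h over the alternative fits, in place of 2.58. At 72 h it reached up to 3.65 in place of 3.14. In Glud1KO myotubes Dtna-201 held more of the counts, 27.8% and 27.2% at 48 h against 22.9% to 24.0% in WT, and 24.5% to 28.2% at 72 h against 22.7% to 23.6%. In myoblasts it held less, 7.02% to 8.18% against 8.21% to 9.32%. By counts the labels did not overlap at any of the 3 stages, although in myoblasts they nearly touched and by share of TPM they overlapped there, the highest Glud1KO library lying above the lowest WT library at 21.2%. This share, chosen after its values were seen, was not tested. An antisense gene, Gm47898, overlaps a Dtna exon by 90 nt.

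**Figure D4:**
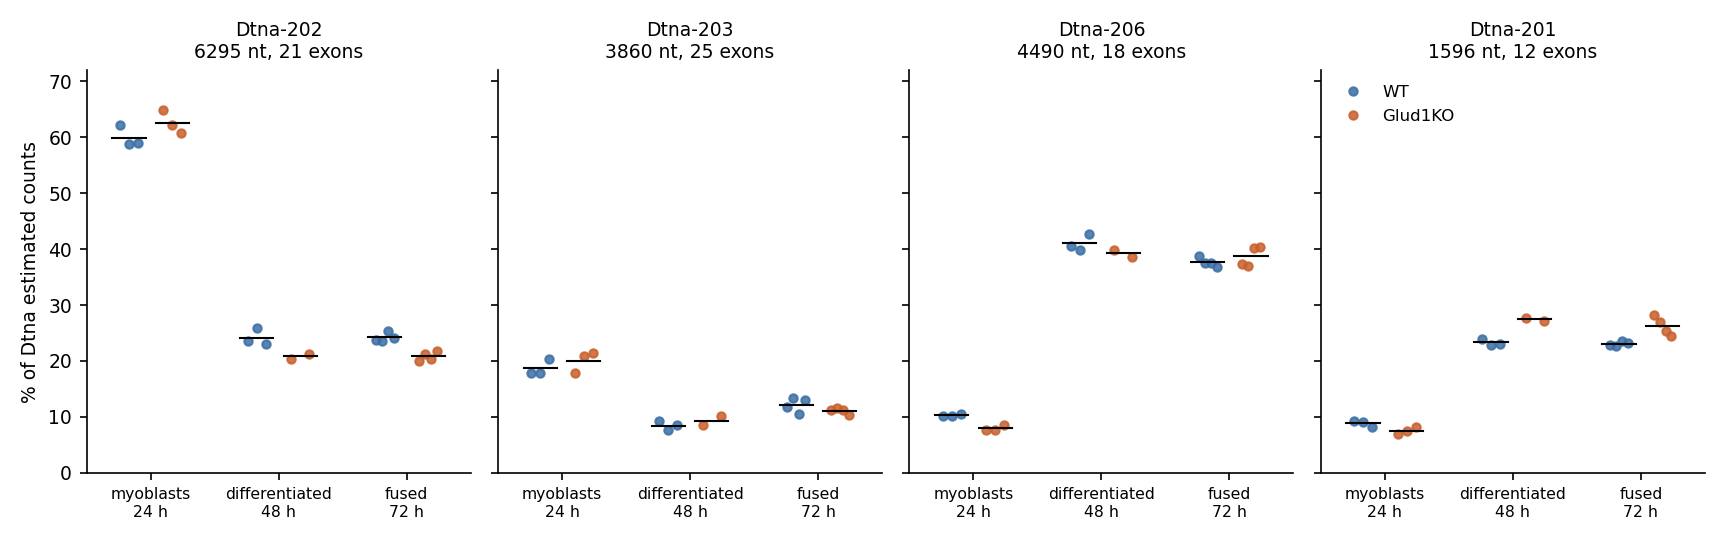
Share of Dtna estimated counts held by 4 transcripts in each library, by stage and label (blue WT, orange Glud1KO), with group means as black lines; titles give transcript length and exon number. Dtna-202 fell from 60.0% to 24.2% of counts in WT by 48 h while Dtna-206 rose to 41.1% and Dtna-201 to 23.3%.

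Of 12 further genes of the complex 9 were tested. Apart from Sntg1, all of these were called between WT myoblasts and fused myotubes, 4 upward and the rest downward, where 85.5% of all genes were called. The rises included Cav3 (4.91), the muscle caveolin, and the syntrophin Sntb1 (3.72). Dtnb, the dystrobrevin found outside muscle fibres, fell by 2.57, Sgce by 2.94, Sntb2 by 1.14 and Drp2 by 1.05. Sntg1 was at 0.281 to 0.401 CPM in WT myoblasts and at most 0.0457 CPM in WT fused myotubes. It passed the filter through the group where it was higher, so its call is left out and no fold is given. Among 12 linkers of the costamere, the membrane attachment of the sarcomere, 11 were tested, 7 rose and 4 fell, beside 42.2% of all genes called higher and 43.4% lower. Synm, an intermediate filament protein that binds Dtna, rose by 3.66 and Dysf, a membrane repair protein, by 2.99, while Krt19 fell by 0.97 and Ank2 by 0.72.

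Genes with the most similar course over the 6 group means were found as the smallest root mean square difference of centred log2(CPM + 0.1) among protein-coding genes. For Dmd these were Trim63 (0.08), Tnnc1 (0.09) and Pdlim3 (0.09). For Dag1 they were Tpm2 (0.08), Hif1an and Usp28. Sgcd is left out, since its myoblast levels lie near the added 0.1 CPM. Utrn was closest to Rbms3 (0.07), Gabbr1 and Csrnp1. The nearest to Sgca were Tob1 (0.04), Dedd2 and Rab4a, to Sgcb Cog8 (0.03), Atg2a and Stam2, to Sspn March6 (0.07), B4gat1 and Slc22a5, and to Dtna Cystm1 (0.08), with Rgma also at 0.08. Within the complex Dag1 and Dtna were the most alike (0.16), then Sgcb and Sspn (0.18), while Dmd and Utrn differed by 2.17.

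The labels were compared at each stage. In myoblasts, Sgca and Dag1 were lower under the Glud1KO label and the other 6 members were not called. Sgca had 43.7, 42.4 and 42.6 CPM against 52.4, 49.9 and 53.2 in WT, a change of -0.27 ± 0.05 (adjusted p 0.000243). Dag1 changed by -0.22 ± 0.05 (adjusted p 0.00429). Both groups of values were separate in each gene. These are 2 of 8 members, where 11.6% of all genes were called, 4.86% as higher and 6.69% as lower. Of the other members, 5 had values below WT without a call, with Dmd at -0.46 ± 0.18 (adjusted p 0.104), Sspn at -0.12 ± 0.04 (0.0578), Utrn at -0.11 ± 0.07 (0.37), Sgcb at -0.09 ± 0.04 (0.204) and Dtna at -0.08 ± 0.05 (0.382). Sspn was called in 5 alternative fits, with values of -0.12 to -0.14 and adjusted p-values of 0.0226 to 0.0481, and Utrn in the fit of only these 2 groups (-0.12, adjusted p 0.0494). Sgcd, with 10 counts in WT and 5 in Glud1KO myoblasts, was too low for a label comparison at this stage. Dmd was also called in 5 alternative fits, among them DESeq2 (-0.47, adjusted p 0.0172) and the fit of only these 2 groups (-0.47, adjusted p 0.0112). Of the 9 stage markers 4 were called, all lower, with Myh3 at -0.92, Ckm at -0.81, Myog at -0.63 and Mymk at -0.45. Mymx (0.03), Pax7 (0.01), Myf5 (0.01), Mki67 (0.11) and Myod1 (-0.04) were not called. The summed level of all 9 was 1302 to 1319 CPM against 1438 to 1529 in WT. The summed pericyte and smooth muscle markers were 44.3 to 49.8 CPM against 53.8 to 60.3. Their part in the lower values of the complex was not tested.

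In differentiated myotubes, Dag1 was higher and Utrn lower under the Glud1KO label. The Dag1 libraries at 1489 and 1631 CPM lay above the WT libraries at 1203, 1343 and 1444, a change of 0.23 ± 0.05 (adjusted p 0.00221). Utrn, at 474 and 402 CPM against 493 to 526, changed by -0.23 ± 0.08 (adjusted p 0.0265). These are 2 of 8 members, where 25.2% of all genes were called, 11% as higher and 14.1% as lower. The group has 2 libraries, and they differed from each other in several members, with Dmd at 232 and 194 CPM and Sgca at 160 and 187. Both calls were lost when single libraries were left out. Without Glud1KO differentiated replicate 2, Dag1 stood at 0.16 (adjusted p 0.0947) and Utrn at -0.12 (0.43), where the lone remaining Glud1KO library is assumed to vary like the other groups, and without WT differentiated replicates 2 or 3 Utrn stood at -0.22 (0.0606) or -0.21 (0.0751). With an offset for the trend of counts on length Utrn was at -0.07 (0.251). The other 6 members ranged from -0.01 in Sspn to 0.22 in Sgcd. Among them Dtna, at 0.11 ± 0.05 (0.0679), was called in 5 alternative fits (adjusted p 0.00888 to 0.0457), and Dmd, at 0.12 ± 0.08 (0.31), was called with the length-trend offset at 0.29 (0.000321). Sgca was called at 0.16 (0.0212) without Glud1KO differentiated replicate 1, which leaves a lone library in that group. Of the stage markers, Mki67 (-2.55), Pax7 (-0.92), Myod1 (-0.31) and Myf5 (-0.19) were lower. Mymx (0.67) and Mymk (0.27) were higher, and 6 of 9 were called in all. Myog (-0.009), Myh3 (-0.015) and Ckm (0.08) were not called. The summed pericyte and smooth muscle markers were 11.7 to 12.7 CPM against 15.5 to 16.8 in WT. Most of this sum was Notch3, at a mean of 10.1 CPM against 14.1. Cspg4 was also lower, at 0.53 against 1.25 CPM, and Rgs5 was at 0.24 against 0.27. Myh11 went the other way, at 1.02 to 1.62 CPM against 0.479 to 0.598 in WT. The part of these markers in the differences of the complex was not tested.

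In fused myotubes, Sspn and Dtna were higher and Dmd lower under the Glud1KO label. Sspn changed by 0.35 ± 0.03 (adjusted p 2.06e-08), or 1.28-fold, with 4 of 4 libraries above all WT libraries. Dtna changed by 0.15 ± 0.03 (adjusted p 0.00294), also with no overlap, at 261 to 280 CPM against 235 to 248. Both kept the call in all 17 alternative fits. Dmd changed by -0.24 ± 0.07 (adjusted p 0.0175), and its libraries overlapped because Glud1KO replicate 4, at 226 CPM, stood apart from the other 3 at 178 to 183. The Dmd call was lost with DESeq2 (-0.23, adjusted p 0.0878), with the effective-length offset (-0.23, 0.187) and in 5 of the 8 fits that left out a library, where it ranged down to -0.18 (0.0894 without WT fused replicate 4). These are 3 of 8 members, where 13% of all genes were called, 6.32% as higher and 6.72% as lower. The other 5 members ranged from -0.08 in Utrn to 0.10 in Sgcd. At this stage 1 of the 9 stage markers was called, Myf5 at -0.31.

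**Figure D5:**
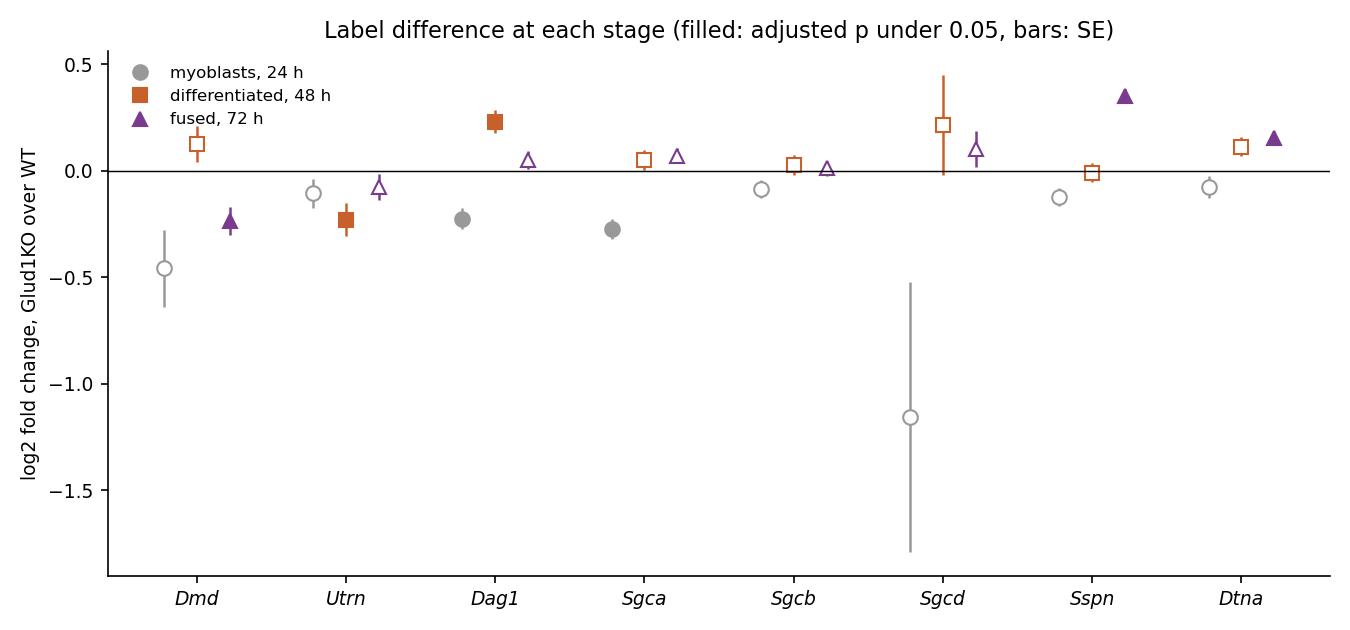
Log2 fold change of Glud1KO over WT for each gene at 24 h (grey circles), 48 h (orange squares) and 72 h (purple triangles), with SE bars; filled symbols have an adjusted p under 0.05. Sspn at 72 h is the highest value at 0.35, and Sgcd at 24 h, with 0 to 5 counts per library, has the widest error.

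Splits of the calls by direction depended on the scaling. In myoblasts 42.1% of the called genes were higher under the Glud1KO label, against 29.3% with DESeq2 size factors, 27.0% with DESeq2 and 18.9% with the effective-length offset. In differentiated myotubes 43.9% were higher, against 27.0% with library size alone, 49.0% with DESeq2 size factors and 52.8% with the length-trend offset. From Glud1KO myoblasts to 48 h the share was 49.3%, against 38.8% with library size alone. For the differences of the label effect described last, it was 40.7% from myoblasts to 48 h (26.3% to 53.7% over the other scalings and DESeq2), 55.9% from 48 h to 72 h (75.0% with library size alone) and 55.8% over the whole course (65.9% with DESeq2 size factors, 67.0% with the effective-length offset). The companion genes are given as counts of calls, beside 11.6%, 25.2% and 13% of all genes called in myoblasts, at 48 h and at 72 h. Among the 9 tested further genes of the complex, 2 were called lower in Glud1KO myoblasts. At 48 h Cav3 was higher (0.38) and 3 were lower, led by Dtnb (-0.52) and Drp2 (-0.43). At 72 h Sgce (0.38) was among 3 called higher and Drp2 (-0.26) was lower. Of the 9 ligands tested, 4 were called lower in myoblasts, where 6.69% of all genes were lower, 5 at 48 h (14.1% of all genes), led by Lamb1 (-1.499) and Agrn (-0.43), and 2 at 72 h (6.72%), with 0 called higher. The ligands were not tested as a group. Of the 17 tested glycosylation genes 2 were called at each stage, 1 in each direction. Among 11 costamere linkers, 2 were lower in myoblasts (Krt19 at -0.34 and Des at -0.33) and 5 at 48 h, led by Ank2 (-0.93), and at 72 h Krt19 was higher (0.65) and 3 were lower.

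The label difference itself changed between stages for 5 members. From myoblasts to 48 h the Glud1KO effect moved upward in Dmd, by 0.58 ± 0.20 (interaction term, adjusted p 0.0404), in Dag1, by 0.45 ± 0.07 (6.33e-05), and in Sgca, by 0.32 ± 0.07 (0.000859), where 19.1% of all genes were called. From 48 h to 72 h it moved downward in Dmd, by -0.36 ± 0.11 (0.023), and upward in Sspn, by 0.36 ± 0.06 (5.03e-05), where 14.8% were called. Over the whole course it moved upward in Dag1, by 0.27 ± 0.07 (0.00745), Sgca, by 0.34 ± 0.06 (0.000304), Sspn, by 0.47 ± 0.05 (8.25e-07), and Dtna, by 0.23 ± 0.06 (0.0158), where 10.3% were called. These 3 contrasts share libraries, and each is given with its own values. The 2 Dmd differences lost their call under several settings, among them library size scaling (adjusted p 0.0741 and 0.0691) and without Glud1KO differentiated replicate 1 (0.141 and 0.243). The Sgca difference from myoblasts to 48 h lost its call with the effective-length offset (0.29, adjusted p 0.0858). Over the whole course the Dtna difference lost its call without WT myoblast replicate 3 (adjusted p 0.0884) or Glud1KO myoblast replicate 1 (0.0758).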

How the data were processed

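RNA was measured as messenger RNA libraries made with an Illumina TruSeq mRNA kit, per the labels' protocols, in 19 libraries of 6 groups. For each library the authors deposited estimated counts, TPM, length and effective length of 121843 transcripts, per the file headers. The submitters' processing notes name bcl2fastq 2.20, fastp 0.20.0, kallisto 0.46.1, edgeR 3.36 and GRCm38.p6. Kallisto shares reads among transcripts, so estimated counts need not be whole, and related or overlapping genes can exchange counts.

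Transcripts were assigned to genes with GENCODE M21 (GRCm38). The 825 without a match (0.255% to 0.507% of counts) were left out. Gene sums were rounded and tested with edgeR 4.0.16 in R 4.3.3, in 1 quasi-likelihood fit of 6 groups over 15123 genes after filterByExpr and TMM scaling, with Benjamini-Hochberg adjustment over all genes in each of 12 comparisons. The code of the fit was also run on simulated counts, which checks the code and not these results. The deposited TPM served for levels per length and was not tested. Dmd full-length shares were compared by exact permutation tests. Alternatives were DESeq2 1.42.0, other scalings, filters, offsets for length, a replicate block and leaving out each library. Replicate pairs differed beyond sampling noise, with a chi-square of 2.14 to 7.66 per degree of freedom.

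The members and gene lists were chosen with earlier results of these data known. By rule all 8 members were named in every comparison, and of each companion list the 2 largest called rises and falls with a mean of at least 1 CPM. Other companion genes were chosen after their values were seen. A few genes that the rule names are not reported here.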

Additional observations from a re-analysis of the deposited data

Results flagged for a closer look

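Of 18 sets of 4 fused-myotube libraries examined, 3 held a library that stood apart from the other 3 by Dixon's criterion, which chance meets in about 1 of 20 sets. Glud1KO fused replicate 4 had 225.7 CPM of Dmd against 178.5 to 182.9 in the others, and the same library had 266.3 CPM of Utrn against 231.9 to 237.0. Glud1KO fused replicate 3 had a full-length Dmd share of 97.6% against 98.11% to 98.17%.

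The remaining results were picked out because the effect of the Glud1KO label differed between stages by an interaction term of edgeR's quasi-likelihood test. From myoblasts to differentiated myotubes the differences on the log2 scale were 0.582 in Dmd (adjusted p 0.0404), 0.454 in Dag1 (6.33e-05) and 0.324 in Sgca (0.000859). From differentiated to fused myotubes they were -0.361 in Dmd (0.023) and 0.362 in Sspn (5.03e-05). From myoblasts to fused myotubes they were 0.273 in Dag1 (0.00745), 0.345 in Sgca (0.000304), 0.474 in Sspn (8.25e-07) and 0.231 in Dtna (0.0158). The Dtna difference lost its call without WT myoblast replicate 3 (0.19, adjusted p 0.0884) or Glud1KO myoblast replicate 1 (0.19, 0.0758). Both Dmd differences and the Sgca difference from myoblasts to differentiated myotubes also lost their calls in alternative fits, as described above. The cause of these differences was not tested.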

How the results depend on the processing

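With the replicate number as a block, Dmd in myoblasts passed the threshold (-0.46, adjusted p 0.0271), and so did Dmd from 48 h to 72 h in Glud1KO (-0.22, adjusted p 0.00321). The block gave 1666 genes called in myoblasts against 1747 without it. Same-numbered libraries did not deviate together (median r -0.011 over 41 pairs). The cause of the changes below was not tested. Over all genes the effective-length offset called 587 in place of 1747 between labels in myoblasts, 2146 in place of 3810 at 48 h and 821 in place of 1972 at 72 h, and 1452, 982 and 663 in place of 2890, 2238 and 1557 for the differences of the label effect. The fit of only the groups compared called 2625 in myoblasts. Against 2 members called in myoblasts, DESeq2 called 4, the fit of only the groups compared 5 and the length-trend offset 4. At 48 h, leaving out a library gave 0 to 3 calls against 2. For the difference of the label effect from myoblasts to 48 h the length-trend offset gave 5 calls against 3, and leaving out a library 2 to 5. From 48 h to 72 h, library size scaling and the effective-length offset each gave 1 against 2. The rise of the full-length Dmd share from myoblasts to 72 h was 36.4 points in WT and 35.0 in Glud1KO by counts, and 58.2 and 55.6 by TPM. Its label difference changed sign when a library was left out, from -0.69 to 4.91 points in myoblasts and from -0.17 to 0.46 at 72 h.

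Other than Dmd from 48 h to 72 h in Glud1KO, no reversed value was called. Label differences at 48 h reversed for Sgca with library size scaling (-0.0071) and the effective-length offset (-0.018), for Sgcb with library size scaling (-0.028) and for Sspn with DESeq2 size factors (0.0052), DESeq2 (0.0051), the block (0.0047) and the length-trend offset (0.049). From 48 h to 72 h in WT, Sgca was -0.025 with DESeq2 size factors, -0.067 with library size, -0.025 with DESeq2, -0.022 with a mean CPM of at least 1, -0.024 with only the groups compared, -0.043 with the effective-length offset and -0.081 with the length-trend offset. In Glud1KO it was -0.017, -0.0166 with DESeq2, -0.0037 with the CPM filter, -0.0081 with only the groups compared and -0.069 with the length-trend offset. Dmd from 48 h to 72 h in Glud1KO (-0.15, adjusted p 0.104) was called upward with the length-trend offset (0.26, adjusted p 0.000133) and downward in 5 other settings (the effective-length offset gave -0.34, 0.0165) and without Glud1KO differentiated replicate 2 or fused replicate 4. Leaving out a library gave label differences at 48 h of -0.0059 to 0.25 in Dmd, -0.067 to 0.16 in Sgca, -0.031 to 0.087 in Sgcb and -0.028 to 0.025 in Sspn, at 72 h of -0.0018 to 0.042 in Sgcb, and stage changes from 48 h to 72 h in Sgca of -0.023 to 0.023 in WT and -0.085 to 0.14 in Glud1KO.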
